A study of Gallus gallus with 12 samples.

Results

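The 300 brightest probes of the DT40subNB series were examined in the bone marrow of young hens. They were chosen from a dual-colour chicken array as the probes whose ID starts with DT40subNB, that had a value in all 12 samples, and that had the highest mean over those samples. They make up 39.7% of the 756 DT40subNB probes with a value and 16.7% of the 1798 on the array, where 1042 had no value. The mean level chose them, so every level below is a description without a test. The difference between breeds within a slide took no part in the choice.

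The marrow came from the right tibia of females aged 15 weeks and was used whole, without separating its cells. The layers were Hy-Line White Leghorn birds of a pedigree line and the broilers were Cobb-Cobb birds of a commercial line, with 6 samples of each. The birds moved from starter to grower feed at 6 weeks and to developer feed at 8 weeks. Layers were fed ad libitum and broilers were feed-restricted from week 6, so feeding and breed cannot be told apart. In whole marrow, fewer cells of a type and less RNA per cell cannot be told apart either. A layer and a broiler sample shared each of the 6 slides, in opposite dyes. The slides are called 1 to 6 here, in the order of the slide numbers in the titles. The layer carried the 555 dye on slides 1, 2 and 5 and the 647 dye on slides 3, 4 and 6. Nothing in the labels says that samples came from separate birds, so the p-values measure the spread between slides, which may be technical.

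Bone marrow is where the chicken makes its red cells, thrombocytes and granulocytes. Chicken B cells arise from precursors that mature mainly in the bursa of Fabricius, a gut-associated organ. DT40 is the name of a B cell line from a bursal lymphoma, widely used because its genes can be replaced by homologous recombination. The labels do not say what the prefix DT40subNB stands for, and the files used here do not pair its IDs with genes. The probes are therefore described by ID, with no gene, cell type or pathway named, and the marrow could not be checked against marker genes. On a dual-colour array both samples compete for the same spots. The ratio within a slide therefore removes a factor that the spot puts on both channels alike, but not an intensity added to both. The dye stays as a source of difference that the alternating orientation is meant to balance.

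Levels are log2 intensities with the column's median taken off, so that 0 is the median of the 3754 probes with a value. The 300 probes had means from 0.92 to 5.72 with a median of 2.43. Those are levels 1.89, 52.7 and 5.38 times the column median. The distribution was broad. A total of 15 probes had a mean under 1, 109 lay between 1 and 2, 52 between 2 and 3, 54 between 3 and 4, 35 between 4 and 5, and 35 above 5. The limit fell in a dense stretch of the ranking: DT40subNB_8F8, DT40subNB_11G3 and DT40subNB_2D3, the last inside, had 0.94, 0.93 and 0.92. The first 3 outside, DT40subNB_9B10, DT40subNB_17F12 and DT40subNB_16E1, had 0.92 each.

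These probes held the top of the whole array. DT40subNB probes were 20.1% of all probes with a value, yet members filled all 10 of the 10 highest places, 48 of the first 50, 92 of the first 100 and 218 of the first 300. The lowest array rank of a member was 472. The brightest probe of the Pat series had a mean of 4.57, of the C00041 series 4.93 and of the DKFZ426 series 1.86. Probe levels depend on what was spotted as well as on the RNA, so this ranks spots and not transcripts. The 30 probes that carry names of plant genes or proteins reached a mean of at most 0.11, and all 300 members lay above it. In all 12 samples, 143 members exceeded the highest plant-named value of the same sample. That count was set by slides 1 and 6. The highest plant-named value was 1.84 (layer) and 1.87 (broiler) on slide 1, and 1.23 and 1.19 on slide 6. On slides 2 to 5 it was at most 0.09, and the lowest member had at least 0.59. On slide 6, 11 members in the layer and 4 in the broiler were at or below the plant-named median.

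The members were spread over the whole series. Their IDs give a plate and a well, on 18 plates of 96 probes, except for 13 members. Members per plate ran from 7 on plate 18 to 22 on plate 11, with a median of 16.5. Well rows held 25 members (row H) to 49 (row B), and well columns 17 to 33.

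The 5 brightest probes were DT40subNB_18B2, DT40subNB_14B4, DT40subNB_1F8, DT40subNB_4H12 and DT40subNB_6E5, with means of 5.72, 5.69, 5.62, 5.59 and 5.55. In slide order, DT40subNB_18B2 had levels of 5.48, 5.42, 6.40, 6.12, 6.13 and 4.85 in layers. Its levels in broilers were 5.83, 5.69, 6.13, 5.45, 6.59 and 4.56. Its level differed more between slides than between breeds, and both partners were lowest on slide 6. The groups overlapped, with a layer mean of 5.73 ± 0.58 (SD, n = 6) and a broiler mean of 5.71 ± 0.69 (SD, n = 6). A slide and its pair of samples cannot be told apart here. The broiler value was the higher on slides 1, 2 and 5 and the lower on the other 3, which is the order of the dyes. DT40subNB_14B4 ran from 4.57 to 6.97 in layers and from 4.34 to 6.22 in broilers, and its partners changed sides on the same slides.

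The last probe inside the limit, DT40subNB_2D3, had layer levels of 0.54, 0.99, 1.18, 0.66, 0.72 and 1.42. Its broiler levels were 0.40, 1.37, 1.63, 1.01, 0.83 and 0.30. Here the broiler was the higher on 4 slides in the middle of the series and the lower on slide 1 and, by a difference of -1.13, on slide 6. The first probe outside, DT40subNB_9B10, ran from -0.43 to 1.53 in layers and from -0.40 to 1.65 in broilers, with both lowest values on slide 6.

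The ranking was stable between 5 of the slides. The median level of the members in layers was 2.96, 2.64, 2.62, 2.74, 2.89 and 1.55 in slide order. In broilers it was 2.53, 2.42, 2.80, 2.87, 2.72 and 1.49. The breeds overlapped, with means of 2.57 ± 0.52 (SD, n = 6) and 2.47 ± 0.51 (SD, n = 6), and both samples of slide 6 stood far below the rest. Without that slide layers had 2.77 ± 0.15 (SD, n = 5) and broilers 2.67 ± 0.19 (SD, n = 5). Across the 300 probes, which are not independent, the Spearman correlation of slide levels was 0.933 to 0.967 between pairs of the 5 slides and 0.798 to 0.832 for pairs with slide 6.

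A slide left out of the choice gave the same picture. When the 300 were chosen on the other 5 slides, 266 to 280 of them were among the 300 brightest DT40subNB probes of slides 1, 2, 3, 4 and 5, and 245 on slide 6. Between 292 and 297 of the 300 chosen this way were members. The median level on the slide left out was 2.55 to 2.83 on the first 5 slides and 1.51 on slide 6. The DT40subNB probes not chosen had 0.19 to 0.28 and -0.07.

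The intensities behind the levels could be read on the scanner's own scale, which helps to place slide 6. On each slide, the exponential of the sum of a spot's 2 deposited values, times a constant, fell on whole numbers when the values were taken as natural logs. The strength of that match over the 300 lowest sums was at least 0.99999 on all 6 slides, where 1 is perfect, and at most 0.229 for log2 and 0.228 for log10. Smaller constants left a share of products off the grid in a way that pixel medians ending in 0.5 would give, and the constant was read on that basis. Only the product of the 2 channels could be read this way. Every intensity below is therefore the geometric mean of the layer and broiler channels of a slide, and that of a single channel is not known. If such medians do not occur, every intensity below is 2 times as high and the comparison between slides stays the same.

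Level 0 stood at 177, 169, 187, 167 and 170 scanner units on the first 5 slides and at 372 on slide 6, which is 2.14 times their geometric mean. The plant-named probes had median intensities of 150 to 168 units on those 5 slides and 337 on slide 6. The members' median intensity was 1197, 993, 1210, 1184, 1200 and 1063 units in slide order. The reference level of slide 6 was thus higher by 1.10 on the log2 scale, while the members' own median intensity differed by -0.12 on that scale. The median gap between slide 6 and the mean of the other slides, over the members' levels, was -1.10. It is a median of the gaps of single probes, so it is another measure than the difference between those medians. The lowest intensity of any probe was 138 to 159 units on all 6 slides, and the dimmest member of each slide had 165 to 315 units. DT40subNB_2D3 had 245 to 675 units. If that floor is background, which was not tested, the folds of dim members are smaller than those of their RNA.

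The gap of slide 6 was not the same for every member. It ran from -5.56 to 0.93, and 15 members were higher on slide 6 than on the mean of the others. The widest gap was that of DT40subNB_4A9, whose layer levels were 5.34, 5.38, 6.39, 5.09, 5.55 and -0.04 and whose broiler levels were 5.62, 5.57, 6.35, 5.23, 5.54 and 0.14. This probe was bright on 5 slides, at 5968 to 15467 units, and lay near the column median on slide 6, at 386 units. The next was DT40subNB_4C5, with levels of 3.55 to 4.68 on the first 5 slides and -0.82 and -0.54 on slide 6. DT40subNB_8G1, DT40subNB_4A1 and DT40subNB_14G1, named after their values were seen, had gaps of -3.90, -3.75 and -3.67. The sixth widest gap was -2.50. Of these 5 probes, 3 were on plate 4 by their ID and 3 in well column 1. Plate 4 held 21 of the 300 members and well column 1 held 25. The positions were read after the probes were picked, and a link to position was not tested.

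Away from slide 6 most members varied little between slides. The SD of the slide mean over the other 5 slides had a median of 0.30 and ran from 0.05 to 0.90. The steadiest was DT40subNB_6F6, with slide means of 2.54, 2.57, 2.58, 2.63 and 2.51 and then 1.17 on slide 6. Its partners were less steady than their mean. The broiler minus layer difference of this probe was -0.79, -0.19, 0.46, 0.50, -0.15 and 0.64, with the 647 channel the lower on all 6 slides. DT40subNB_4E2 had slide means of 1.05 to 1.23 on the 5 slides and 0.10 on slide 6.

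The least steady were DT40subNB_7D3, with an SD of 0.90, and DT40subNB_13F1, with 0.78. DT40subNB_7D3 had slide means of 0.36, 1.28, 0.96, 2.72, 0.80 and 1.02, and slide 4 was the high one, with 2.15 in the layer and 3.29 in the broiler. DT40subNB_13F1 had slide means of 1.37, 2.16, 3.23, 2.97, 3.08 and 1.71. It was low on slides 1 and 6 and high on 3 of the others, in both breeds alike.

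The comparison of the breeds asks which of these transcripts differ between layer and broiler marrow. None of the 300 passed: the limma test of the within-slide ratio, with the slide as block and a dye term, gave 0 members at an adjusted p under 0.05, as for 0.0% of the 3720 probes tested. The lowest adjusted p was 0.169. Differences were small, though larger than over all probes tested. The median size of the change, without its sign, was 0.09 for members and 0.04 for all probes tested. With its sign, the median broiler minus layer change was -0.01 over the members, against -0.0027 over all probes tested. The highest was 0.38, or 1.30-fold, and the lowest -0.27. Per probe and without adjustment, the 95% interval of the change stayed within 2-fold either way for 300 of 300 members. The same held for 3706 of the 3720 probes tested, so it is not particular to the members. It stayed within 1.5-fold for 269 members, a count not computed over all probes. The median SE was 0.08 for members and 0.04 for all probes tested.

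At an unadjusted p under 0.05 there were 38 members (12.7%), against a background of 6.45% of the probes tested. Of these, 15 (5.0%) were higher in broilers, against a background of 4.22%, and 23 (7.67%) were lower, against 2.23%. The first share was near its background over all probes tested. A fit on only the 1460 probes with a mean above that of every plant-named probe had other backgrounds. There 16 members (5.33%) were higher in broilers, against a background of 8.36%, and 22 (7.33%) were lower, against 3.01%. Without slide 6 the counts were 36 of 300 higher, against a background of 6.59%, and 43 of 300 lower, against 3.82%. Without slide 4 there were 36 of 300 higher, against a background of 5.16%, and 24 of 300 lower, against 2.55%. By sign alone, 6 members (2.0%) were above the layer on all 6 slides, with a background of 3.09%, and 5 (1.67%) below it, with a background of 2.12%. Both were a little under their background, with few members in each, and the gap was not tested.

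The calls in the 2 directions sat at different levels, and many of the lower calls also differed by dye. The 15 higher members had a median level of 1.48, with 3 in the brighter 150 and 12 in the dimmer 150. For 3 of them the dye term also had an unadjusted p under 0.05. The 23 lower members had a median level of 3.72, with 18 in the brighter 150, and 17 of them also had a dye term under that threshold. Among all members the dye term was under it for 39.0%, against 5.78% of the probes tested. Both terms of a probe share its residual variance, so these calls are not independent. The part of the dye in these calls was not tested beyond that. Without the dye term 18 members were higher, against a background of 3.95%, and 10 lower, against 1.56%.

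Of members with the same sign on all 6 slides, 2 in each direction with the lowest p are given. DT40subNB_36 had layer levels of 1.19, 1.25, 1.62, 1.50, 1.84 and 0.53 and broiler levels of 1.47, 1.52, 1.90, 1.65, 2.07 and 0.85. The broiler was the higher on each slide, by 0.15 to 0.32, and the groups overlapped because the slides differed by more. The change was 0.26 ± 0.03 (SE), or 1.19-fold, and limma gave it an adjusted p of 0.169. The 3 slides with the layer in 555 averaged 0.26 and the other 3 averaged 0.25. With a trended and robust variance the limma adjusted p was 0.0215, and with weights by slide 0.0342, so the side of the threshold on which this probe falls depends on the variance model. Over 16 alternatives the limma adjusted p ran from 0.0215 to 0.9999. The change ran from 0.22 to 0.45, highest with the plant-named level subtracted.

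DT40subNB_17D11 had layer levels of 0.93, 1.01, 1.16, 1.09, 1.28 and 0.88 and broiler levels of 1.10, 1.13, 1.48, 1.33, 1.47 and 1.10. The broiler was again the higher on 6 of 6 slides, by 0.12 to 0.31. The change was 0.21 ± 0.02 (SE), or 1.16-fold. Its limma adjusted p was 0.169, fell below the threshold with weights by slide at 0.0342, and ran from 0.0342 to 0.9999 over 16 alternatives. The change ran from 0.19 to 0.38 over them, again highest with the plant-named level subtracted. This probe also had the smallest SD over the 12 samples of all members, 0.19.

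In the other direction, DT40subNB_8A4 had layer levels of 4.43, 3.67, 4.64, 4.64, 4.63 and 3.65. Its broiler levels were 4.26, 3.48, 4.58, 4.49, 4.53 and 3.56. The layer was the higher on 6 of 6 slides, with a change of -0.13 ± 0.02 (SE) and 0.314 as its limma adjusted p. DT40subNB_8E5 ran from 0.34 to 1.77 in layers and from 0.32 to 1.59 in broilers, with a change of -0.10 ± 0.02 (SE) and a limma adjusted p of 0.341. Neither passed the threshold in any alternative, where the adjusted p was at least 0.0819 and 0.0713.

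A group of 19 dim members was picked by slide 6 after their values were seen. All 19 had the layer higher there, which the choice fixed, and the broiler higher on slides 2, 3, 4 and 5. They were picked as the members with the layer more than 1 above the broiler on slide 6, where their difference was -1.85 to -1.08 with a median of -1.64, or 3.12-fold. The next member had -0.68, so they stood apart from the other 281. On slides not used to pick them, the broiler was the higher in 19 of 19 on slides 2, 3, 4 and 5 alike. The medians there were 0.54, 0.57, 0.36 and 0.31, or 1.46-, 1.49-, 1.28- and 1.24-fold. On slide 1 the median was -0.10 and 16 of the 19 were lower in the broiler. Of the other 281 members, 14 had the broiler higher on all 4 of those slides.

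The pattern crossed the dyes. The broiler carried the 647 dye on slides 2 and 5 and the 555 dye on slides 3 and 4, and it was the higher in both orientations. The layer median of the 19 was 0.79, 1.09, 0.88, 0.91, 0.92 and 2.11 in slide order, and the broiler median 0.66, 1.63, 1.48, 1.29, 1.20 and 0.48. On this scale the layer sample of slide 6 was the highest of the 12 samples and its broiler partner the lowest, although the members as a whole were low in both. Slide 6 picked the 19, so this partly restates the choice. Its level 0 also stood at 372 scanner units, against 167 to 187 on the other slides, so the order of the samples need not hold in those units. Over the 5 slides that did not pick them, the Pearson correlation of the differences of 2 of the 19 probes had a median of 0.939 and a lowest value of -0.0227 over the 171 pairs.

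The 19 probes had ranks 204 to 300 and means of 0.92 to 1.70. They came from 11 plates by their IDs, with at most 3 on a plate and 1 without a plate, so they were not neighbours on 1 plate. The widest difference on slide 6 was that of DT40subNB_17B11. Its layer levels were 0.63, 1.11, 0.87, 0.92, 0.84 and 2.65 and its broiler levels were 0.53, 1.71, 1.57, 1.29, 1.20 and 0.80. DT40subNB_2D3 and DT40subNB_7D3, described above, were among the 19. The slide 6 values that picked the 19 also entered the mean that made them members. Over the slides other than slide 6, DT40subNB_2D3 had a mean of 0.93. DT40subNB_9B10, outside the limit, had 1.19 there. A further 10 DT40subNB probes outside the 300 had the layer more than 1 above the broiler on slide 6, and 10 of these 10 had the broiler higher on the same 4 slides, as had 10 of 39 such probes in the other series. Higher by more than 0.2 on all 4 were 17 of the 19, 3 of these 10 and 3 of the 39.

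The breed comparison gave different values for this group with and without slide 6. With all 6 slides, 0 of the 19 had an unadjusted limma p under 0.05, against a background of 6.45% of the probes tested. The median change was 0.02 with a median SE of 0.30. After quantile normalization that median change was -0.14. These fits include slide 6, which picked the 19, so their values are a description. Without slide 6, 17 of the 19 had an unadjusted limma p under 0.05, all higher in broilers, against a background of 6.59%. The median change was then 0.38, or 1.30-fold, with a lowest limma adjusted p of 0.268. These 17 were among the 36 members called higher without that slide. The 19 probes share their samples, so they are not separate observations. Whether the samples or the slide made the difference on slide 6 was not tested.

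A second group differed between the dye channels on most slides. On slide 1, 80 members, again picked after the values were seen, had the 647 channel more than 0.4 below the 555 channel, with a median ratio of -0.63. Their 647 channel was also the lower on slide 2 in 77 of 80, on slide 4 in 74, on slide 5 in 74 and on slide 6 in 75, with medians of -0.29, -0.27, -0.33 and -0.40. Slide 3 was the exception, with a median of 0.16 and 22 of 80 lower in 647. Of the 201 members in neither this group nor the 19 above, the 647 channel was the lower in 88, 110, 83, 100 and 128 on slides 2 to 6. The 80 members lay on 18 plates, with at most 8 on a plate, and had means of 0.95 to 4.16. None of the 19 probes above was among them. The median breed change of the 80 was -0.14, and the 11 of the 80 with an unadjusted breed p under 0.05 were all lower in broilers. Among all members 12.7% had such a p and 7.67% were lower, against 6.45% and 2.23% of the probes tested. The fit includes slide 1, which picked the 80, so these values are a description. The broiler carried the 647 dye on slide 1, so the choice itself favoured lower broiler values.

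Across all members the dye ratio changed with the level. Taken in steps of 50 by rank, the mean over slides of the median 647 minus 555 ratio was 0.19 for the brightest 50, then -0.12, -0.23 and -0.20, and -0.05 and -0.06 for the dimmest 100. The brightest 50 had a median above 0 on 6 of 6 slides, from 0.07 to 0.41. Ranks 51 to 100 and 151 to 200 had it below 0 on all 6, and ranks 101 to 150 on 5.

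The dye term passed an adjusted p of 0.05 for 0 members and for 0.0% of the probes tested in limma. At an unadjusted p under 0.05 there were 117 members (39.0%), against a background of 5.78%. Of these, 28 (9.33%) were higher in the 647 channel, against a background of 1.72%, and 89 (29.7%) were lower, against 4.06%. Of the 28, 27 were among the 50 brightest. Of the 89, 74 had ranks 51 to 200. The 647 channel was above 555 on all 6 slides for 23 members (7.67%), against 1.75%, and below it for 27 (9.0%), against 3.31%. The median size of the dye term was 0.18 for members and 0.04 for all probes tested. Without slide 6 the adjusted count was 1 member and 0 without any other slide.

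DT40subNB_1B1 had the lowest p of the dye term. Its 647 minus 555 ratio was 0.48, 0.42, 0.62, 0.52, 0.47 and 0.35 in slide order, above 0 on 6 of 6 slides. The term was 0.48 ± 0.04 (SE), or 1.39-fold, at a limma adjusted p of 0.0843. Its layer levels, 5.24 to 6.25, and broiler levels, 4.98 to 6.06, overlapped, and its breed change was -0.02 ± 0.04 (SE). DT40subNB_4C8 had ratios of 0.19 to 0.77 and a dye term of 0.44 ± 0.05 (SE), at a limma adjusted p of 0.238.

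With all 6 slides, differences between the breeds tended to change sign with the dye orientation, and less so without slide 6. Across the 300 probes, the mean difference between breeds with the layer in 555 and that with the layer in 647 had a Pearson correlation of -0.488, which was -0.107 without slide 6 and 0.111 for the 300 brightest Pat probes with all slides. The sign differed between the orientations for 207 of the 300 members with all slides. The share over all probes tested was not computed, so this count has no background. A total of 62 were on the broiler side in both and 31 on the layer side. Between slides of the same orientation the correlation of the differences averaged 0.311 over 6 pairs, and between slides of opposite orientation it averaged -0.213 over 9. Leaving out slide 3 gave averages of 0.516 and -0.470, and leaving out slide 6 gave 0.521 and -0.0790. On single slides the members' median difference was -0.08, -0.04, 0.0010, 0.08, -0.06 and 0.15, which is below 0 with the layer in 555 and above 0 with the layer in 647. At least 297 of the 300 differed by less than 2-fold between partners on the first 5 slides, and 281 on slide 6.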

How the data were processed

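The deposited table gives 1 value per probe and sample and no counts or detection calls. The authors' image analysis, background treatment, filter and normalization were not given in the sources used here. Deposited values were read as natural log intensities, from the whole-number spacing described above, and were divided by 0.693 to give log2. Column medians were near 0, and the values were used as deposited. No sequence of any probe was used.

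Samples were grouped by breed from the labels and paired by the slide number in the titles. The deviations of slide partners from their group means correlated across the 300 members at 0.644 to 0.888. The 647 minus 555 ratio of each slide was fitted with limma 3.58.1 (lmFit, eBayes) in R 4.3.3, with a dye and a breed term, on the 3720 probes that are not control-like. The fit had 4 residual degrees of freedom and 1.75 from the variance model. Benjamini-Hochberg adjustment ran over all 3720, with a threshold of 0.05. The fit was tested on simulated data with known changes. Intervals are at 95%, and the small number of slides limits the precision.

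The members, the rules for naming and the alternatives were chosen with earlier results of these data known. Probes were named by level (the 5 highest, the last inside and the first outside the limit), by breed (the 2 lowest p in each direction among those of the same sign on all 6 slides), by dye (the 2 lowest p), by SD of slide means without slide 6 (the 2 highest and the 2 lowest) and by the gap of slide 6 (the 2 widest). The 19 and 80 probes picked by slides 6 and 1 and the subtraction of the plant-named level were added after seeing the data. Alternatives were other scalings, other fits and each slide left out. Lists of marker genes could not be used, since no file pairs the IDs with genes.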

Additional observations from a re-analysis of the deposited data

Results flagged for a closer look

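In 10 of the 40 groups of 6 samples examined, 1 sample lay far from the nearest of the others relative to the range of its group, where chance picks about 5% of independent groups. All 10 lay on slide 6. Of the 10, 5 came from probes named for their gap on slide 6 or for a small spread over the other slides, so the count is not to be set against that 5%. The members' median level was 1.49 in its broiler sample, where the nearest other broiler had 2.42, and 1.55 in its layer sample, where the nearest had 2.62. DT40subNB_14B4 was at 4.34 in that broiler sample, against 5.64 in the nearest, and DT40subNB_4H12 at 3.99, against 5.52. DT40subNB_9B10 was at -0.43 in the layer sample, against 0.93, and DT40subNB_6F6 at 0.85, against 2.35. DT40subNB_4A9 was at -0.039 in the layer and 0.14 in the broiler, against 5.09 and 5.23. DT40subNB_4C5 was at -0.82 and -0.54, against 3.55 and 3.65. The groups share slides and probes, so these are not 10 separate observations.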

How the results depend on the processing

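Alternatives left the median breed difference and the choice of members nearly unchanged: 292 to 297 of the 300 were kept when they were chosen by the median, after quantile normalization, in 1 breed or without a slide. The count of members past the adjusted threshold for breed was 0 except with a trended and robust variance (1, of 2 among all probes) and with slide weights (4, of 11), and 0 to 0 with a slide left out. With slide weights slide 6 had a weight of 0.0872. Without the slide as a block, the unpaired fit called 0 members higher and 0 lower for breed at an unadjusted p under 0.05, and 2 higher and 0 lower for dye. The 15 higher for breed (4.22% of all probes) became 25 with quantile normalization (3.98%), 36 with slide weights (6.85%), 8 of 230 with the plant-named level subtracted (8.10%) and 12 to 36 with a slide left out (3.12% to 6.59%). The 23 lower (2.23%) became 10 without the dye term (1.56%), 8 with slides as random blocks (1.99%), 12 with a trended variance (1.91%), 41 with slide weights (4.73%), 8 of 230 after subtraction (3.12%) and 17 to 43 with a slide left out (1.21% to 3.82%). Shares in brackets are of all probes tested, 321 after subtraction, of which 230 were members, and 3720 otherwise. The members' own share of lower calls was 7.67% in the fit as reported. It was 3.33% without the dye term, 2.67% with random blocks, 4.0% with a trended variance and 3.48% after subtraction. With slide weights it was 13.7%, and 5.67% to 14.3% with a slide left out. Of the members with the same sign on all slides, 6 higher and 5 lower became 3 and 3 after subtraction, and 6 to 22 and 5 to 13 with a slide left out, where fewer slides must match. The adjusted count for dye was 1 with the random block, with slide weights and among probes above the plant-named level, and 0 to 1 with a slide left out. The 28 higher in 647 (1.72% of all probes) became 16 with quantile normalization (1.75%), 0 with a trended variance (0.0269%) and 45 with slide weights (4.60%), and ran from 25 to 40 with a slide left out (1.21% to 3.12%). The 89 lower (4.06%) became 50 with quantile normalization (2.53%) and 59 of 230 after subtraction (20.9%), and ran from 67 to 111 (3.25% to 4.84%). The cause was not tested for these changes. The probes named for breed kept their direction in every alternative run. They were picked for the same sign on all slides, so leaving a slide out or changing the fit could not reverse them. Only the other scalings and the subtraction could have done so. The median change of the 19 probes picked by slide 6 was 0.02 in the fit as reported, -0.14 with quantile normalization, 0.36 with slide weights, and -0.17 to 0.38 with a slide left out.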
